A study of Mus musculus with 17 samples.

Results

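Genes that build the mitotic spindle and genes that copy DNA were followed through 17 mouse mammary tumours. Of 43 listed genes, 42 had a probe set paired with their symbol alone, 26 mitotic genes and 16 replication genes, out of 12393 genes measured. No such probe set was found for Ccnb1, the mitotic cyclin B1 gene. Probe sets paired with several genes were not used. Where a gene had several probe sets, the one with the highest mean over the 17 arrays stood for it.

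Every tumour was of FVB mice and carried the label T58A, a mutant form of the Myc oncoprotein, and the MMTV-Myc design, in which a promoter active in mammary epithelium drives the transgene. All carried the wording "low expressing", which the labels do not define. The histology label put 6 tumours in the EMT group, where EMT is the field's abbreviation of epithelial to mesenchymal transition. It put 9 in the Squamous group, 1 in Papillary and 1 in Microacinar, so the last 2 histologies have values and no test. No tumour or gland without the transgene is among the samples, and the mice's ages are not given in the labels. The labels do not say that the tumours came from separate mice. Squamous 7 and Squamous 8 share a number in their titles, as do Squamous 5 and Microacinar 1, so p-values measure only the spread between these samples.

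The values are log2 signals of Affymetrix arrays, and their number limits the precision, since no read depth exists. Array medians lay between 7.23 and 7.40. The titles of 3 arrays (EMT 5, EMT 6 and Squamous 9) have a TM format and those of 14 a numbered format. The spread of values differed between the formats, with an SD of 2.46 to 2.51 on TM arrays and 2.25 to 2.29 on numbered arrays. On the 3 TM arrays 2989 probe sets held one identical value, against at most 1 on any 3 numbered arrays, and the fit therefore carried title format as a term. Of the 42 genes, 0 had a single value on all 3 TM arrays and 5 (Cdc20, Ttk, Foxm1, Rrm1 and Tyms) had 2 distinct values there. As a check of the mammary label, the milk protein gene Csn2 spanned 6.74 to 13.78 in EMT tumours, against 12.87 to 14.39 in Squamous tumours. The 6.74 was in EMT 6, below the median level of all genes (7.80), so the check did not bear out the label in that tumour. Cdh1, the epithelial adhesion gene E-cadherin, was at 7.04 to 8.10 in EMT 4, EMT 5 and EMT 6. It lay between 11.84 and 12.09 in EMT 1, EMT 2 and EMT 3 and between 11.13 and 11.97 in Squamous tumours. Myc itself, whose probe set was not tested for telling the transgene from the mouse gene, had a lowest, median and highest log2 value of 9.18, 9.96 and 12.40 in EMT tumours. In Squamous tumours it had 9.79, 11.40 and 12.29 (limma log2 difference -0.51, SE 0.53, adjusted p = 0.685).

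A dividing cell copies its DNA in S phase and parts the copies in mitosis, and the genes for each task are transcribed in waves. Replication genes are induced early by E2F transcription factors once the retinoblastoma protein releases them. Mitotic genes follow later, through complexes of MuvB with B-Myb and Foxm1 that act at promoter elements called CHR (cell cycle genes homology region), often beside CCAAT boxes bound by NF-Y. Myc is known to push cells into this cycle. In bulk tumour RNA, fewer cells of a type and less RNA per cell cannot be told apart.

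Promoters of both sets are printed because both waves of transcription are known to be controlled there. The windows came from RefSeq on mouse build GRCm38.p6 and span 300 bases, 250 before and 50 after the start of transcription. Windows were at hand for 35 of the 42 genes, 39 windows in all. Tpx2, Aurkb, Kif20a, Ccna2, Foxm1, Mcm4 and Gins1 had none. The motifs searched on both strands were the CHR element (TTTGAA or TTCGAA), the CCAAT box (CCAAT), the E box (CACGTG, the binding sequence of Myc) and the E2F site. The E2F site was searched as TTCCCGC, as the form TTCGCGC, as the form TTGCCGC and as the form TTGGCGC. Forms of the E2F site can overlap one another and a CCAAT box. Below are the 250 bases before the start of the mitotic genes with the smallest p in the comparison of EMT with Squamous tumours among those with a CHR match in these bases. They are written 5′ to 3′ on the gene's strand, with every match to a motif, on either strand, in capitals.
Cdk1, chr10:69352913-69353162, minus strand: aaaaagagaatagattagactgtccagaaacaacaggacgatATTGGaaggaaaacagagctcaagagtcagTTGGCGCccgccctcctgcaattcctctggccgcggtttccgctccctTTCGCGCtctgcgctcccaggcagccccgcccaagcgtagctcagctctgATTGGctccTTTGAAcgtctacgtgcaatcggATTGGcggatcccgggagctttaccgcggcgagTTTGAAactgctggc
Prc1, chr7:80294226-80294475, plus strand: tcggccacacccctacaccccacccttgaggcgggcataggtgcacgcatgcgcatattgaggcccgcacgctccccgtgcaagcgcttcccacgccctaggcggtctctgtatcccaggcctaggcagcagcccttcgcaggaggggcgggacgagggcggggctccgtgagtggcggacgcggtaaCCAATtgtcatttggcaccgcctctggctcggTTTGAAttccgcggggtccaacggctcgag
Ect2, chr3:27153879-27154128, minus strand: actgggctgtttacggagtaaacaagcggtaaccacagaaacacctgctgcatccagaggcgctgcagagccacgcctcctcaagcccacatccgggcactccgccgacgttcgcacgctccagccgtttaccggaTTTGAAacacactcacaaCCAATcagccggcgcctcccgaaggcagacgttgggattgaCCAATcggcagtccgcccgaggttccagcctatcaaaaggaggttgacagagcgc
Kif2c, chr4:117178773-117179022, minus strand: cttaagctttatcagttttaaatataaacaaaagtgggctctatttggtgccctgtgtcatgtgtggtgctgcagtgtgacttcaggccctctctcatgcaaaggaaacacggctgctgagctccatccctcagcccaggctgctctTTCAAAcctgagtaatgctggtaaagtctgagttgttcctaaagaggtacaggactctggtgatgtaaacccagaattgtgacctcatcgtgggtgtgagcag

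The same 250 bases follow for the replication genes with the smallest p among those with an E2F match in them, again with matches to any of the motifs in capitals.
Rrm1, chr7:102441445-102441694, plus strand: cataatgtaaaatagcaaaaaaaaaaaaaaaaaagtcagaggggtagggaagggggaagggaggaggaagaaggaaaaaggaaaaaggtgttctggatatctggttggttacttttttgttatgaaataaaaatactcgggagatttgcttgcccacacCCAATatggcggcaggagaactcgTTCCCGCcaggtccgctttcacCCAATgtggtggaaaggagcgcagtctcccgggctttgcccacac
Pola1, chrX:93632156-93632405, minus strand: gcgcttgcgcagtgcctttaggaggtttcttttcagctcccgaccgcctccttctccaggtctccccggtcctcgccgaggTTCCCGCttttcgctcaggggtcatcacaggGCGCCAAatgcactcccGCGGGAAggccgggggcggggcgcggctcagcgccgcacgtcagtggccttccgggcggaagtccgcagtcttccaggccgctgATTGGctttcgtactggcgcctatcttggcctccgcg
Cdc6, chr11:98907901-98908150, plus strand: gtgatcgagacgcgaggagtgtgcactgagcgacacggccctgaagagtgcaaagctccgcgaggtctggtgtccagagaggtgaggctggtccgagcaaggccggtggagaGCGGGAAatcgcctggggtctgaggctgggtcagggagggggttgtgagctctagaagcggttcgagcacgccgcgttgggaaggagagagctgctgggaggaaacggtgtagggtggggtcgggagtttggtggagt
Mcm5, chr8:75109259-75109508, plus strand: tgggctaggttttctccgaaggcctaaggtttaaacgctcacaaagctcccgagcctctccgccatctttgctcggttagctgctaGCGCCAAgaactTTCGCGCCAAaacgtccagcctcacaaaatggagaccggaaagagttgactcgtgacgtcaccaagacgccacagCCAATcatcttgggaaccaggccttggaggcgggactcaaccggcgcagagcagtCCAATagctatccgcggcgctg

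A CHR match was in 18 of 23 mitotic windows (78.3%) and in 4 of 16 replication windows (25%), against 19.2% of all 32851 promoter windows in the table. An E2F match ran the other way, in 4 of 23 mitotic windows (17.4%) and in 11 of 16 replication windows (68.8%), against 9.57% of all windows. Over the 12566 windows of measured genes, a CHR match was in 14.6% and an E2F match in 14.5%. For E2F the mitotic share was thus near that of measured genes, and its 4 windows include both overlapping windows of Ect2. CCAAT boxes were frequent in both sets, in 19 of 23 mitotic windows (82.6%) and 12 of 16 replication windows (75%), against 37.4% of all windows. The E box was in 1 of 23 mitotic windows and 2 of 16 replication windows, against 7.15% of all windows. Cdk1, the mitotic gene with the highest fold change, carried both kinds, with 2 CHR and 2 E2F matches. Cdc45, the replication gene with the highest fold change, had 2 CHR matches and 0 E2F matches. Top2a held 4 CHR matches and 6 CCAAT boxes in its window, whereas Birc5, Mad2l1 and Nusap1 held no match to any of the motifs. Such a match is a description of letters, not a binding site, and the absence of one says only that these letters are not in this window. The genes Prc1, Ect2, Mcm7 and Fen1 had 2 windows each. Those of Prc1 and Ect2 overlap and hold the same number of matches, whereas those of Mcm7 and Fen1 lie apart and differ in theirs.

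**Figure D1:**
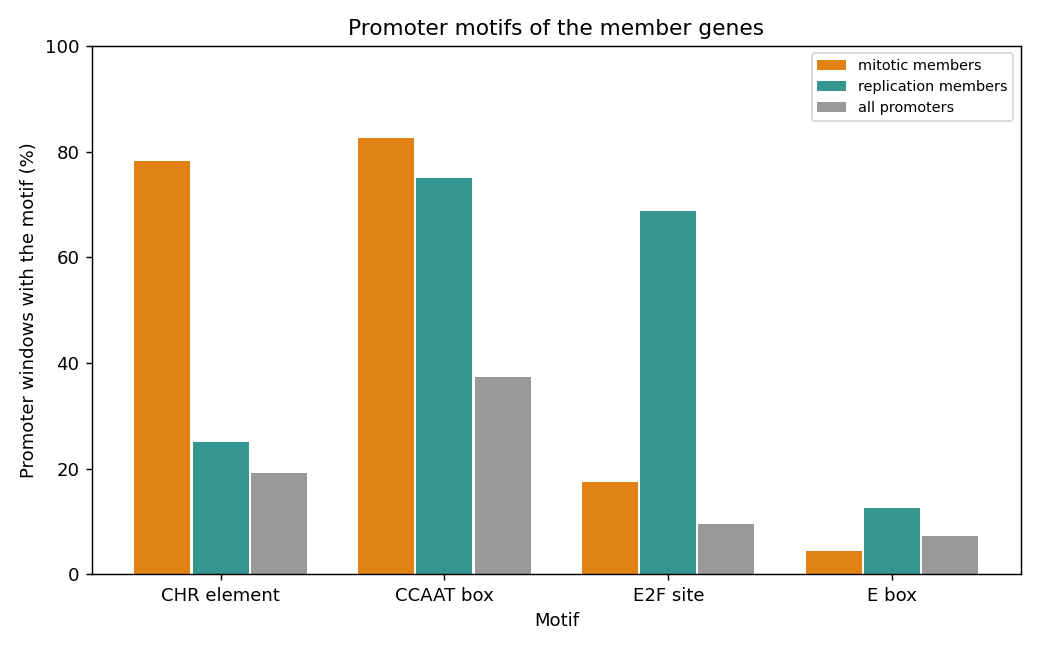
Share of promoter windows with at least 1 match to each motif (y axis, percent), for the mitotic windows (orange), the replication windows (green) and all windows of the table (grey). The CHR element was in 78.3% of mitotic and 25% of replication windows, and the E2F site in 17.4% and 68.8%. Windows of measured genes, which are not drawn, held the CHR element in 14.6% and the E2F site in 14.5%.

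The first comparison asked whether these genes differ between EMT and Squamous tumours, the only histologies with replicates. Fitted log2 differences were above 0, that is higher in EMT tumours, for 42 of 42 genes, where 51.8% of all genes were above 0; quantile normalization turned Fen1 to -0.011, and the mean of the probe sets turned Tyms to -0.011. Their median was 0.56 for the mitotic genes (quartiles 0.39 and 0.71) and 0.33 for the replication genes (quartiles 0.09 and 0.43), beside 0.01 for all 12393 genes. No gene passed the test: limma's adjusted p under 0.05 was reached by 0 of the 42 genes and by 0 (0%) of all genes, and the exact permutation test with adjustment over all genes called 0 as well. At an unadjusted p under 0.05, 18 of 26 mitotic and 4 of 16 replication genes were higher in EMT tumours and 0 lower. Over all genes 1001 (8.08%) were higher and 777 (6.27%) lower at that level. The smallest adjusted p among the 42 was 0.123, for Cdk1, and the smallest among all genes was 0.0982. Every EMT tumour lay above every Squamous tumour in 19 of all genes (0.153%), and 3 of these, Cdk1, Aurka and Prc1, were mitotic genes of the list. Of the 16 replication genes, 0 were among them.

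**Figure D2:**
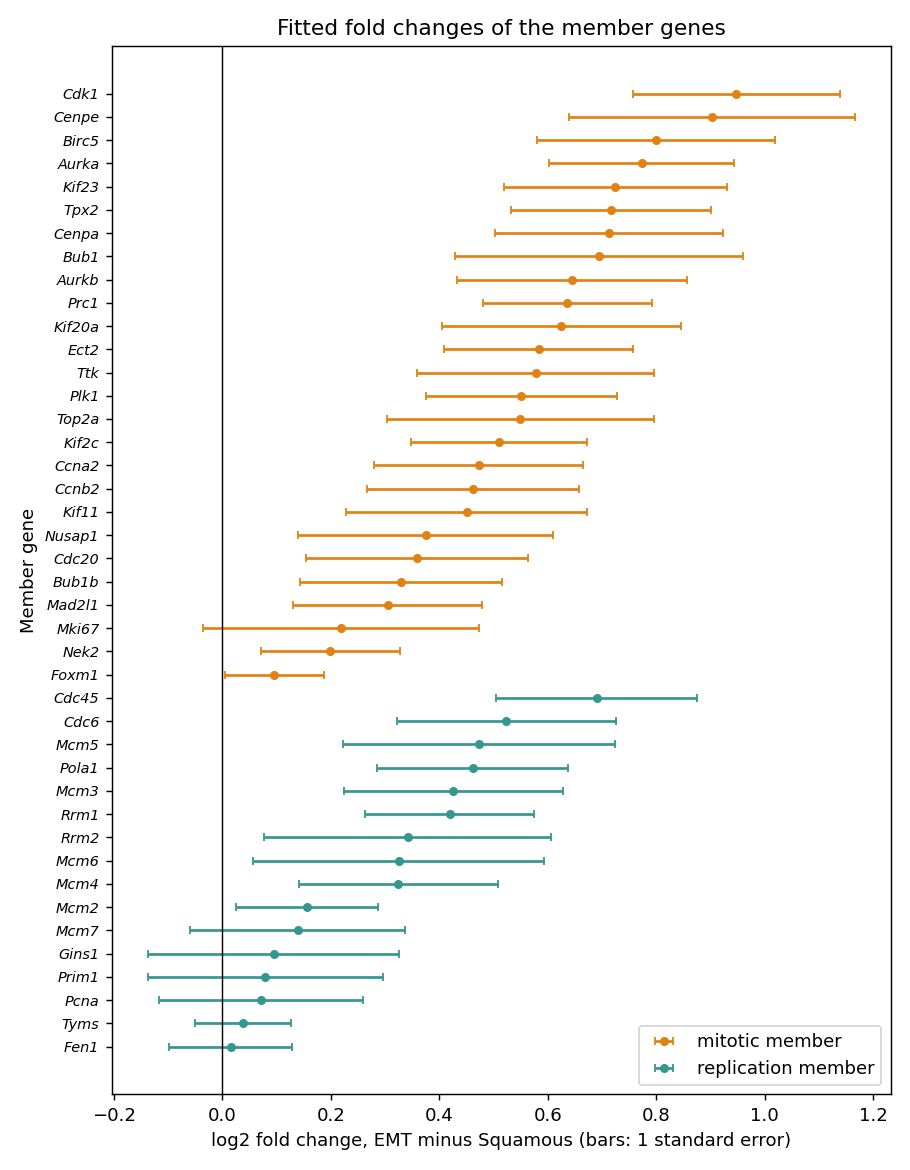
Fitted log2 difference of each gene, EMT minus Squamous (x axis, bars 1 standard error from limma), with the mitotic genes above in orange and the replication genes below in green. All points lie right of 0, between 0.02 for Fen1 and 0.95 for Cdk1, and none passed adjustment over 12393 genes; Fen1 turned to -0.011 with quantile normalization.

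Of the 7 cyclin and mitotic kinase genes, 6 had an unadjusted p under 0.05, beside 14.3% of all genes. The median log2 difference of the 7 was 0.55. Cdk1, the kinase that drives entry into mitosis, had a lowest, median and highest log2 value of 9.85, 10.11 and 10.88 in EMT tumours, against 8.61, 9.28 and 9.65 in Squamous tumours. The lowest EMT tumour thus stood above the highest Squamous tumour (log2 difference 0.95, SE 0.19, limma adjusted p = 0.123). Aurka, the kinase of the spindle poles, measured 8.22, 8.55 and 9.12 in EMT tumours, against 7.13, 7.90 and 8.15 in Squamous tumours. Again the groups did not overlap (0.77, SE 0.17, limma adjusted p = 0.134). For Cdk1 and Aurka the exact two-sided permutation p was 0.0002, the smallest that 5005 arrangements can give, with an adjusted value of 0.118. Unlike the limma fit, the permutation test took no account of title format. Aurkb, the kinase of the chromosomal passenger complex, had 7.76, 8.20 and 8.92 in EMT tumours, against 6.85, 7.54 and 7.97 in Squamous tumours, and 4 of 6 EMT tumours were above all Squamous ones (0.65, SE 0.21, limma adjusted p = 0.231).

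Plk1, a kinase of centrosomes and kinetochores, had 8.28, 9.01 and 9.32 in EMT tumours, against 7.95, 8.44 and 8.93 in Squamous tumours, with overlap (log2 difference 0.55, SE 0.18, limma adjusted p = 0.223). The cyclins were alike in size of difference. Ccnb2, a cyclin partner of Cdk1, differed by 0.46 (SE 0.20, limma adjusted p = 0.315), and Ccna2, the cyclin of S phase and early mitosis, by 0.47 (SE 0.19, limma adjusted p = 0.302). Nek2, a kinase of centrosome separation, had the smallest difference of the 7, at 0.20 (SE 0.13, limma adjusted p = 0.493).

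The spindle checkpoint holds chromosome separation until every kinetochore is attached. Of its 5 genes, 2 had an unadjusted p under 0.05, beside 14.3% of all genes, and the median log2 difference was 0.36. Bub1, a checkpoint kinase, had 8.10, 8.50 and 9.42 in EMT tumours, against 6.77, 8.0 and 8.38 in Squamous tumours (0.69, SE 0.27, limma adjusted p = 0.275). Ttk, the kinase that starts the signal, had 7.19, 7.90 and 8.09 in EMT tumours, against 6.45, 7.19 and 7.72 in Squamous tumours (0.58, SE 0.22, limma adjusted p = 0.271). The mean of the 2 Bub1 probe sets gave 0.40, the second having a mean value of 4.51 and a difference of 0.10. In Bub1 and Ttk alike, 4 of 6 EMT tumours stood above all Squamous tumours and the rest overlapped. The other 3 had smaller differences: 0.36 for Cdc20, the activator of the ligase that ends mitosis, 0.33 for Bub1b, the checkpoint protein BubR1 (0.20 without EMT 3), and 0.30 for Mad2l1, which binds Cdc20. Their adjusted p in limma lay between 0.432 and 0.438.

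Among the 5 kinesins, motors that move or dismantle microtubules, 4 had an unadjusted p under 0.05, beside 14.3% of all genes. The median log2 difference of the 5 was 0.63. Kif23, a motor of the central spindle, had 7.74, 8.18 and 8.58 in EMT tumours, against 6.71, 7.55 and 7.83 in Squamous tumours. Here 5 of 6 EMT tumours were above all Squamous ones (0.72, SE 0.21, limma adjusted p = 0.202). Kif20a, also of the central spindle, differed by 0.63 (SE 0.22, limma adjusted p = 0.250), Kif2c, which takes microtubule ends apart, by 0.51 (SE 0.16, limma adjusted p = 0.219), and Kif11, which pushes the spindle poles apart, by 0.45 (SE 0.22, limma adjusted p = 0.372). Cenpe, a kinetochore motor, had 3.90, 5.64 and 6.30 in EMT tumours, against 3.32, 5.16 and 5.61 in Squamous tumours. Its difference was 0.90 (SE 0.26, limma adjusted p = 0.208), and a fit that left title format out gave 0.52 (limma adjusted p = 0.550). The mean level of Cenpe over all tumours was 5.02, above that of only 15.7% of all genes, and the values carry no detection calls. On the TM arrays Cenpe was at 3.90 in EMT 5 and 4.45 in EMT 6, against 3.32 in Squamous 9, below all numbered arrays of its own histology in each case.

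Of 5 genes of spindle assembly and cytokinesis, 4 had an unadjusted p under 0.05, beside 14.3% of all genes. The median log2 difference of the 5 was 0.64. Prc1, which bundles microtubules between the parting chromosomes, had 9.02, 9.22 and 10.06 in EMT tumours, against 7.88, 8.66 and 8.86 in Squamous tumours, with no overlap (0.64, SE 0.16, limma adjusted p = 0.153). Birc5, the passenger protein survivin, had 9.16, 9.64 and 10.54 in EMT tumours, against 8.48, 8.77 and 9.79 in Squamous tumours, and 1 of 6 EMT tumours was above all Squamous ones (0.80, SE 0.22, limma adjusted p = 0.191). Tpx2, an activator of Aurka, differed by 0.72 (SE 0.18, limma adjusted p = 0.169) and Nusap1, a microtubule bundling protein, by 0.37 (SE 0.23, limma adjusted p = 0.481). Nusap1 was at 0.18 with the mean of its 2 probe sets and at 0.57 without EMT 2. Ect2, the exchange factor that starts the cleavage furrow, had 6.89, 8.86 and 9.03 in EMT tumours, against 7.15, 8.31 and 8.47 in Squamous tumours. All 4 numbered EMT tumours lay above all Squamous tumours, whereas EMT 5 was at 6.89 and EMT 6 at 7.79, beside 7.15 in Squamous 9. The difference for Ect2 was 0.58 (SE 0.17, limma adjusted p = 0.211), and 0.28 (limma adjusted p = 0.656) where the fit left title format out.

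Cenpa, the histone variant that marks centromeres, had 8.91, 9.25 and 10.05 in EMT tumours, against 7.67, 8.67 and 9.01 in Squamous tumours, and 5 of 6 EMT tumours were above all Squamous ones (0.71, SE 0.21, limma adjusted p = 0.209). Top2a, the topoisomerase that untangles sister chromosomes, had 9.74, 10.02 and 11.12 in EMT tumours, against 8.58, 9.41 and 10.25 in Squamous tumours, with overlap (0.55, SE 0.25, limma adjusted p = 0.335). The second Top2a probe set, with a mean of 4.38, gave -0.0053, and the mean of both probe sets 0.27. Mki67, the proliferation antigen Ki-67 used in pathology, had 10.02, 10.66 and 11.10 in EMT tumours, against 9.36, 10.50 and 10.77 in Squamous tumours. Its groups overlapped widely (0.22, SE 0.25, limma adjusted p = 0.726). Without EMT 1, EMT 3 or Squamous 2 the Mki67 difference was 0.083, 0.093 or 0.11, and without EMT 2 it was 0.36. EMT 2, EMT 4 and EMT 5 lay below the Squamous mean for Mki67, while EMT 1, EMT 3 and EMT 6 lay above every Squamous tumour.

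Foxm1, the transcription factor of the mitotic wave, depended on the probe set. The probe set with the highest mean had 7.41, 7.57 and 7.82 in EMT tumours, against 7.25, 7.47 and 7.82 in Squamous tumours (0.10, SE 0.09, limma adjusted p = 0.659). A further Foxm1 probe set had all 6 EMT tumours above all Squamous tumours (0.53, SE 0.12, adjusted p over all probe sets 0.138 in limma), and the other 2 gave 0.17 and 0.04. Without EMT 2 the probe set used for Foxm1 gave 0.035. The correlation of that further probe set with the one used was 0.47 over the 17 tumours.

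**Figure D3:**
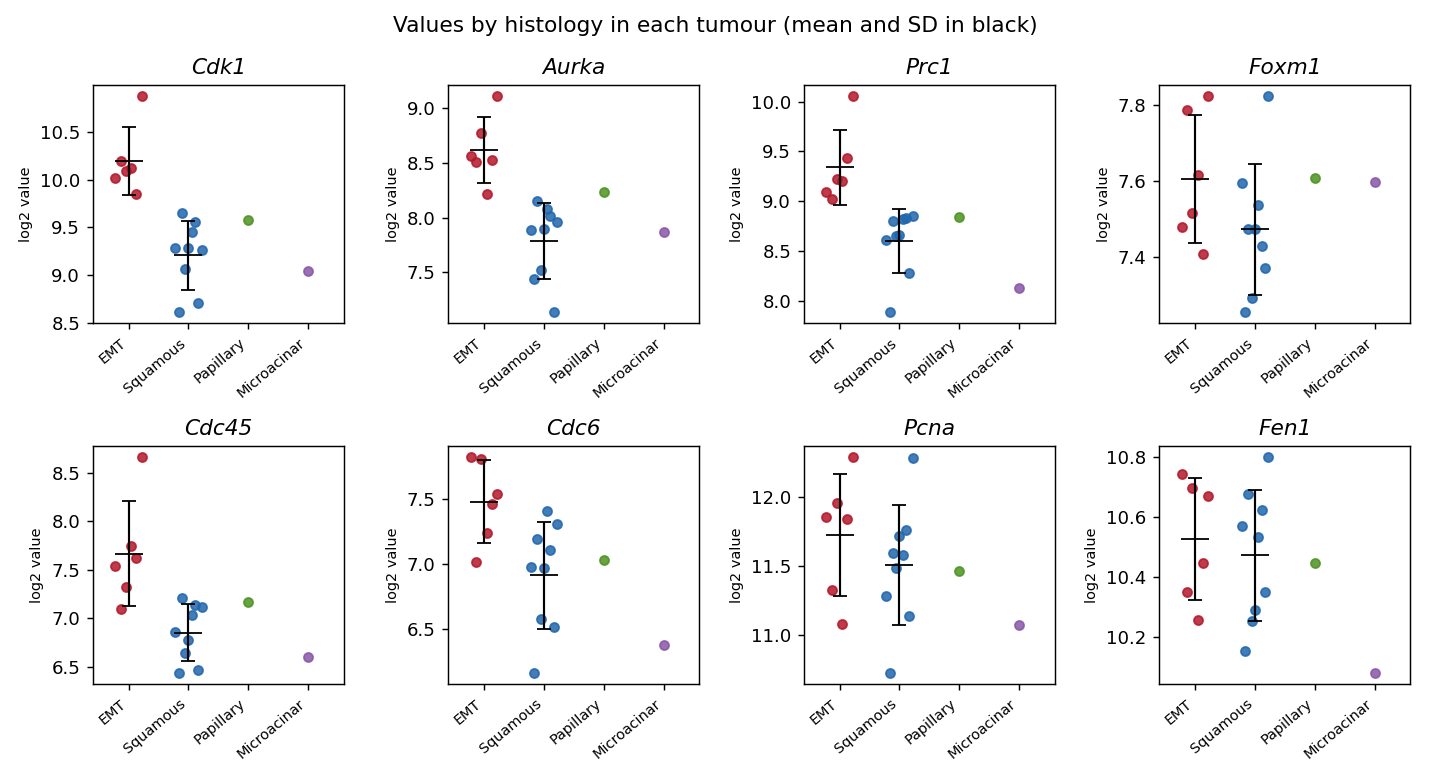
Log2 values of 8 genes in each tumour (points) by histology, with the mean and SD in black for EMT (n = 6) and Squamous (n = 9). Cdk1, Aurka and Prc1 have no overlap of EMT with Squamous tumours, while the other 5 genes overlap.

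Replication starts when Cdc6 loads the Mcm2 to Mcm7 helicase onto origins. Of these 7 licensing genes 1 had an unadjusted p under 0.05, near the 14.3% of all genes that did. The median log2 difference of the 7 was 0.33. Cdc6, the loader, had 7.01, 7.50 and 7.82 in EMT tumours, against 6.16, 6.98 and 7.40 in Squamous tumours, and 4 of 6 EMT tumours were above all Squamous ones (0.52, SE 0.20, limma adjusted p = 0.276). Of the helicase subunits, Mcm5 had 8.02, 8.76 and 8.98 in EMT tumours, against 7.18, 8.41 and 8.79 in Squamous tumours (0.47, SE 0.25, limma adjusted p = 0.404). Mcm3 followed with 0.43 (SE 0.20, limma adjusted p = 0.358), and Mcm6 and Mcm4 with 0.33 and 0.32. Mcm6 was at 0.20 without EMT 1, 0.21 without Squamous 2 and 0.49 without EMT 2. Mcm2 and Mcm7 were lowest, at 0.16 (SE 0.13, limma adjusted p = 0.602) and 0.14 (SE 0.20, limma adjusted p = 0.784). Mcm7 was at 0.017 without EMT 1. It was at 0.25 on the numbered arrays alone and, equally, without Squamous 9, the only Squamous TM array. Of the 5 probe sets of Mcm3 and the 4 of Mcm7, all but 1 dim Mcm3 probe set (-0.032) gave differences above 0.

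Helicase activation gave the widest contrast between replication genes. Cdc45, a cofactor of the active helicase, had 7.09, 7.57 and 8.67 in EMT tumours, against 6.43, 6.85 and 7.21 in Squamous tumours. Here 5 of 6 EMT tumours were above all Squamous ones, and only EMT 2, at the low end, overlapped (0.69, SE 0.19, limma adjusted p = 0.188). Gins1, a subunit of the GINS complex that binds beside Cdc45, had 7.61, 8.16 and 8.74 in EMT tumours, against 7.49, 8.03 and 8.67 in Squamous tumours, a near complete overlap (0.09, SE 0.23, limma adjusted p = 0.882).

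Beside 14.3% of all genes, 1 of 4 genes in DNA synthesis itself had an unadjusted p under 0.05. That was Pola1, the catalytic subunit of polymerase alpha, with 7.72, 8.04 and 8.36 in EMT tumours, against 6.77, 7.67 and 7.95 in Squamous tumours (0.46, SE 0.18, limma adjusted p = 0.274). Prim1, the primase that works with it, differed by 0.08 (SE 0.22, limma adjusted p = 0.898). Pcna, the sliding clamp, had 11.08, 11.85 and 12.29 in EMT tumours, against 10.72, 11.58 and 12.28 in Squamous tumours (0.07, SE 0.19, limma adjusted p = 0.892). Fen1, the nuclease of Okazaki fragment processing, had 10.25, 10.56 and 10.74 in EMT tumours, against 10.15, 10.53 and 10.80 in Squamous tumours (0.02, SE 0.11, limma adjusted p = 0.962). The Squamous range covered 5 of 6 EMT tumours for Pcna and 6 of 6 for Fen1. The second Fen1 probe set gave 0.24 (SE 0.13).

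Of the nucleotide supply genes, Rrm1, the large subunit of ribonucleotide reductase, had 9.48, 10.02 and 10.06 in EMT tumours, against 8.82, 9.48 and 10.05 in Squamous tumours (0.42, SE 0.16, limma adjusted p = 0.267). Rrm2, its small subunit, differed by 0.34 (SE 0.26, limma adjusted p = 0.570), by 0.19 without EMT 2 and by 0.63 without Squamous 9. Tyms, thymidylate synthase, had 4.60, 4.80 and 5.22 in EMT tumours, against 4.75, 4.82 and 5.09 in Squamous tumours (0.04, SE 0.09, limma adjusted p = 0.877). Its 3 probe sets had means of 4.84, 3.97 and 3.83, and the files give no detection calls, so whether they measured the transcript was not tested. On a filter on low values, 30 of the 42 genes (18 mitotic, 12 replication) lay above the median level of all genes.

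The second comparison set the mitotic beside the replication genes within each tumour. Each gene was centred on its mean over Squamous tumours and then averaged over the 26 or the 16 genes. The mitotic mean had a lowest, median and highest value of 0.22, 0.56 and 0.96 in EMT tumours, against -0.63, 0.10 and 0.36 in Squamous tumours. The replication mean had 0.02, 0.30 and 0.60 in EMT tumours, against -0.64, 0.06 and 0.32 in Squamous tumours. Both means overlapped between the histologies.

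Their difference did not. The mitotic mean exceeded the replication mean by 0.14 in EMT 1, 0.31 in EMT 2, 0.21 in EMT 3, 0.23 in EMT 4, 0.19 in EMT 5 and 0.44 in EMT 6. In Squamous tumours the difference lay between -0.20 (Squamous 9) and 0.11 (Squamous 5), with a median of 0.02. All 6 EMT tumours were therefore above all 9 Squamous tumours, and so they were with the median over genes, the mean of a gene's probe sets, the genes above the median level alone, or quantile normalised values. These alternatives were added after the data were seen and use the same tumours and gene lists. Within the numbered arrays the 4 EMT tumours spanned 0.14 to 0.31 and the 8 Squamous tumours -0.09 to 0.11. Within the TM arrays EMT 5 and EMT 6 had 0.19 and 0.44, against -0.20 in Squamous 9. The genes of a set share the same tumours and are not replicates, so the difference carries no p.

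**Figure D4:**
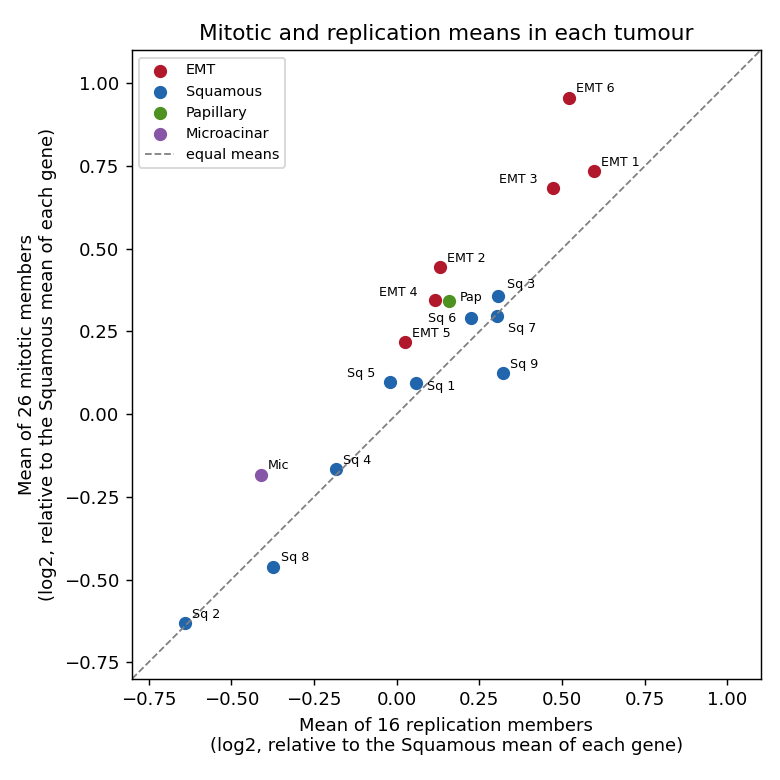
Mean of the 26 mitotic genes (y axis) against the mean of the 16 replication genes (x axis) in each tumour, in log2 units relative to the Squamous mean of each gene, coloured by histology, with the line of equal means dashed. EMT tumours lie 0.14 to 0.44 above the line, and Squamous tumours (Sq) between -0.20 and 0.11 of it; Pap is Papillary 1 and Mic is Microacinar 1.

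The EMT tumours were not uniform. EMT 1 had 23 of 26 mitotic and 10 of 16 replication genes above all Squamous tumours, where 10.1% of all genes in that tumour were. EMT 3 had 21 and 9, where 9.26% of all genes were. EMT 6 also had 21 and 9, where 26.8% of all genes were. The other 3 had fewer. EMT 2 had 10 mitotic genes and 1 replication gene above, where 15.5% of all genes were. EMT 4 had 8 and 2, where 19.6% of all genes were. EMT 5 had 7 and 2, where 27.1% of all genes were, so its mitotic count stood near the background. The replication counts of EMT 2, EMT 4 and EMT 5 lay below the shares of all genes in those tumours. The tumours with low Cdh1 (EMT 4, EMT 5 and EMT 6) held both the lowest and the highest mitotic mean of the group. These were EMT 5 and EMT 6, both on TM arrays.

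Squamous tumours also differed among themselves. Squamous 2 had mitotic and replication means of -0.63 and -0.64, with 0 of 42 genes above the Squamous mean, where 57.4% of all genes were, and Squamous 8 had -0.46 and -0.37, also with 0 of 42, where 49.6% of all genes were. Squamous 3, at the other end, had 0.36 and 0.31, with 42 of 42 above, where 45.4% of all genes were. Squamous 7 and Squamous 8, which share a title number, lay at 0.30 and -0.46 in the mitotic mean. The median SD of a mitotic gene was 0.39 in EMT tumours and 0.39 in Squamous tumours, and that of a replication gene 0.34 in EMT tumours and 0.40 in Squamous tumours, beside 0.37 in EMT and 0.25 in Squamous tumours for all genes.

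Papillary 1 had a mitotic mean of 0.34 and a replication mean of 0.16, with 6 of 26 mitotic and 0 of 16 replication genes above all Squamous tumours, where 8.26% of all genes were. Microacinar 1 had -0.18 and -0.41. In it 1 of 26 mitotic genes was above all Squamous tumours, where 11.1% of all genes were, and 3 of 16 replication genes were below them, where 10% of all genes were, so neither count stands far from the background. The mitotic mean thus exceeded the replication mean by 0.19 in Papillary 1 and 0.23 in Microacinar 1, above the Squamous range, in 1 tumour of each histology.

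**Figure D5:**
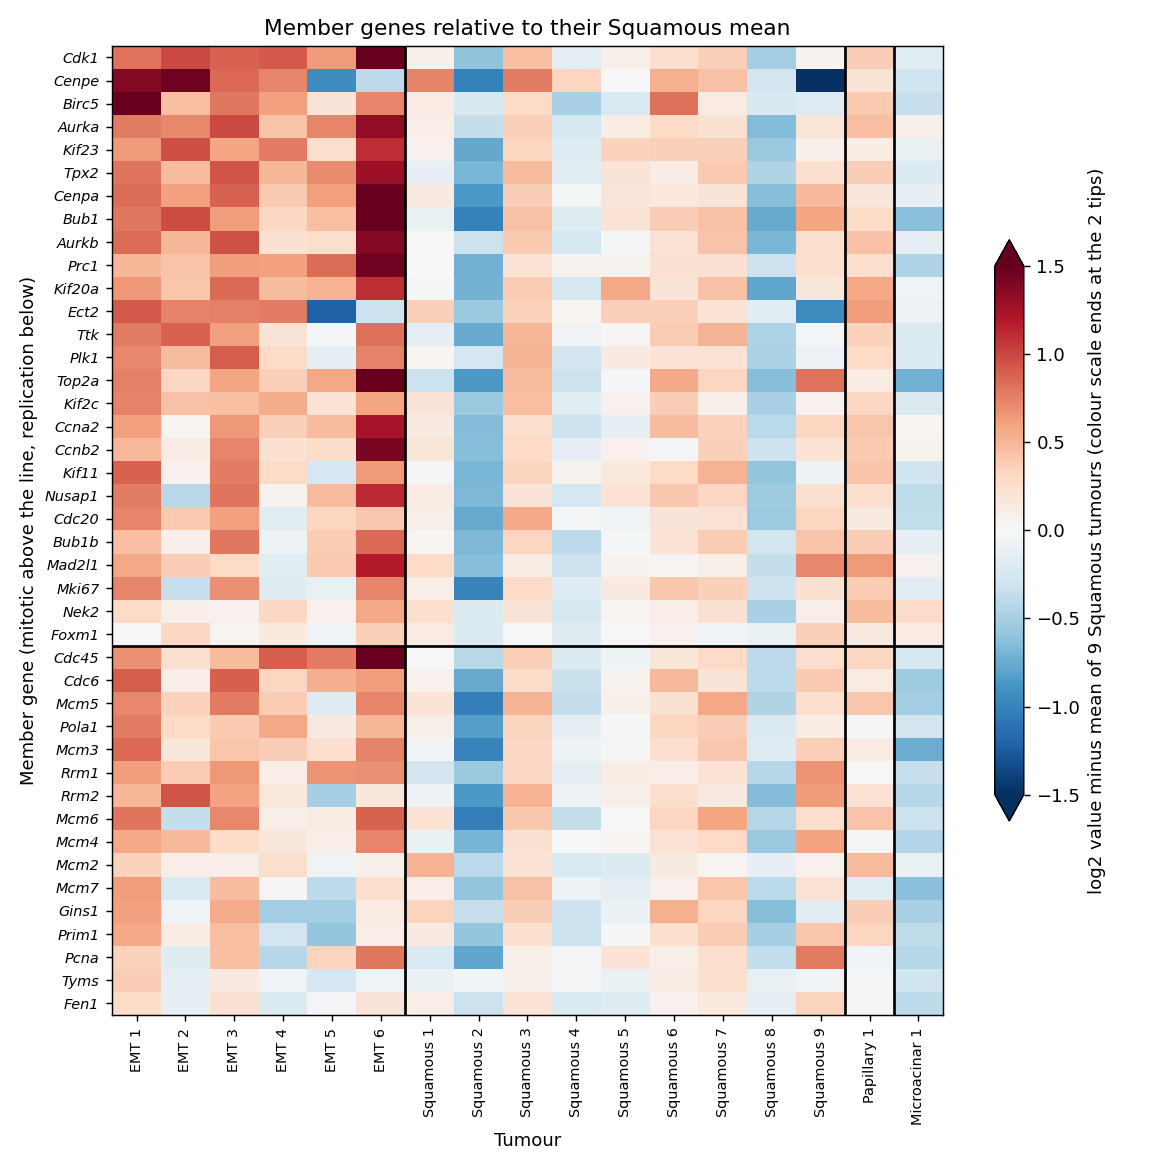
Log2 value of each of the 42 genes (rows, mitotic above the horizontal line, replication below) minus its mean over the 9 Squamous tumours, in each of the 17 tumours (columns); values past 1.5 in size take the end colours. Squamous 2 and Squamous 8 are low in nearly all genes, and EMT 1, EMT 3 and EMT 6 are high in most.

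From tumour to tumour the genes ran together, within sets and between them. Across the 17 tumours, the median Pearson r was 0.76 over the 325 pairs of mitotic genes, 0.71 over the 120 pairs of replication genes and 0.69 over the 416 pairs that join the sets. Over pairs of one of these genes with any gene the median was -0.00. The pairs share tumours and arrays, so these are descriptions. After subtracting the mean of each histology and title format the medians were 0.80, 0.76 and 0.77 over the 14 tumours that shared both with another.

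The closest pair was Mki67 with Mcm6 (r = 0.97), which joins the sets, followed by Cenpa with Tpx2 (r = 0.96). At the other end were Foxm1 with Tyms and Ect2 with Pcna (r = -0.17 each). The lowest median r with the mitotic genes belonged to Ect2 (0.27) and Cenpe (0.30), both low on the TM arrays, and to Tyms (0.34). With Myc, the median r was -0.28 for the mitotic and -0.14 for the replication genes, beside 0.03 for all genes.

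Further genes of the cell cycle, from lists wider than the 42, were read from the same fit. Of 43 other kinetochore and spindle genes, 32 were higher in EMT tumours at an unadjusted p under 0.05, beside 8.08% of all genes, and 0 lower, with a median log2 difference of 0.44. Anln, the cleavage furrow protein anillin, had the highest (1.19, SE 0.29, limma adjusted p = 0.153) and Cenpk, a protein of the inner kinetochore, the lowest (0.07, SE 0.17, limma adjusted p = 0.875). Every EMT tumour lay above every Squamous tumour for 4 of the 43, Ndc80, Plk4, Racgap1 and Tacc3, named after their values were seen, so that with Cdk1, Aurka and Prc1 they make 7 of the 19 such genes. Of 15 condensin and cohesin genes, which shape and hold chromosomes, 2 were higher and 0 lower at that p, near the 8.08% of all genes that were higher, with a median of 0.18, from 0.71 for Smc4, a condensin core subunit, to -0.14 for Pds5a, a cohesin regulator.

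Of 44 other replication genes, 11 were higher and 0 lower at an unadjusted p under 0.05, with a median of 0.25. Tk1, thymidine kinase, stood highest (0.58, SE 0.21, limma adjusted p = 0.252) and Pold3, a subunit of polymerase delta, lowest (-0.27, SE 0.16, limma adjusted p = 0.456). Of 14 genes for E2F, retinoblastoma, MuvB and Myb proteins, 3 were higher and 1 lower, with a median of 0.06. The extremes were E2f8, an E2F that represses (1.13, SE 0.47, limma adjusted p = 0.309), and Rb1, the retinoblastoma gene (-0.56, SE 0.18, limma adjusted p = 0.225). Over all genes 8.08% were higher and 6.27% lower at that p. Of 12 Cdk inhibitors and other brakes, 3 were higher and 0 lower, with a median of 0.34, from 0.61 for Cdkn2c (SE 0.20, limma adjusted p = 0.238) to -0.68 for Cdkn1c (SE 0.55, limma adjusted p = 0.589). No gene of any of these lists passed adjustment.

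Markers of other cells are given beside these genes; no marker passed adjustment in limma (0 in every list), and the ranges of all lists overlapped between the histologies. The mean log2 level of 9 milk genes spanned 6.54 to 12.34 in EMT tumours, against 11.10 to 13.62 in Squamous tumours, and 4 of 6 EMT tumours were below all Squamous ones. Neutrophil genes (7 of 7 measured) spanned 7.09 to 9.76 in EMT tumours, against 8.93 to 10.75 in Squamous tumours, with 5 of 6 below. B and plasma cell genes (5 of 7 measured) spanned 4.82 to 5.31 in EMT tumours, against 5.08 to 8.57 in Squamous tumours, with 4 of 6 below.

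The 11 epithelial genes spanned 6.57 to 11.99 in EMT tumours, against 10.83 to 11.87 in Squamous tumours, with 3 of 6 below. Mesenchymal genes (7 of 7 measured) spanned 7.42 to 9.37 in EMT tumours, against 6.50 to 8.51 in Squamous tumours, with 3 of 6 above. For each of the other 6 marker lists, at most 2 of 6 EMT tumours lay beyond the Squamous range on one side. Values on a log2 scale have no 0, so no marker could be called absent. The 3′ minus 5′ difference of the Actb control probe sets, a sign of RNA integrity, had a mean of 0.59 ± 0.13 in EMT tumours and 0.78 ± 0.11 in Squamous tumours (SD, n = 6 and 9, exact permutation p = 0.0126, adjusted 0.0252 over 2 genes). That of Gapdh averaged 0.10 ± 0.16 in EMT tumours and 0.19 ± 0.11 in Squamous tumours (exact permutation p = 0.247, adjusted 0.247). The part of these cells and of RNA integrity in the differences of the 42 genes was not tested.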

How the data were processed

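Total RNA of 17 mammary tumours was hybridised as biotin-labelled cRNA to Affymetrix arrays, 1 array per tumour, per the labels' protocols. The authors deposited log2 values for 22690 probe sets; that they are log2 was inferred from their range, and the normalization is not given in the sources used here. They were used as deposited. Of these probe sets, 20380 had 1 gene, 691 several and 1555 none in the platform annotation and 64 were controls; 20351 were matched by gene ID to current symbols, giving 12393 genes. The members, roles and gene lists were chosen with earlier results of these data known.

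EMT was compared with Squamous in limma 3.58.1 (R 4.3.3; lmFit and eBayes) with title format as a term, over all genes, with Benjamini-Hochberg adjustment and a threshold of 0.05; the fit was tested on simulated data. Exact two-sided permutation tests took 5005 arrangements and had no term for title format. All members may be named; of each wider list, the genes with the highest and lowest difference. Correlations, tumour means and motif counts (Python 3.11.15) are descriptions. Alternatives were title format, normalization, probe set summary, a filter on low values, the variance model, array weights, all 17 tumours in the fit, averaging tumours of 1 title number, and leaving out each tumour. Of these, the variance model and the fit of all 17 tumours cannot change the fitted differences of EMT and Squamous. Papillary 1 and Microacinar 1 were compared with no other group in a test.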

Additional observations from a re-analysis of the deposited data

Results flagged for a closer look

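Of 90 groups of values examined, one for each gene, each set mean and the difference of the means in each histology, 4 had one tumour far from the rest; chance marks about 1 in 20 such groups. EMT 6 stood far above the other EMT tumours for Cdk1, at 10.88, and for Top2a, at 11.12. Squamous 2 stood far below the other Squamous tumours for Mcm3, at 7.64, and for Pola1, at 6.77.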

How the results depend on the processing

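Without EMT 1, 14 genes passed adjustment, none of them among the 42 genes; the other alternatives gave 0, so leaving out tumours gave 0 to 14, and the cause was not tested. The smallest adjusted p of a member under any setting was 0.0744, for Cdk1 without EMT 1. Leaving out each tumour gave medians of 0.50 to 0.65 for the mitotic genes and 0.23 to 0.40 for the replication genes. Their difference was 0.20 to 0.33. The other settings gave 0.54 to 0.60, 0.24 to 0.40 and 0.20 to 0.31. The ends 0.40 and 0.20 are the same estimate in both ranges and not independent. Without Squamous 9, the only Squamous TM array, the fitted differences equal those of the numbered arrays alone. Of the 42 genes, 37 kept the sign of their difference throughout, and the value of 16 moved by over 1.5 times under at least 1 setting. Fen1 was -0.011 with quantile normalization and Tyms -0.011 with the mean of its probe sets. Leaving out each tumour gave -0.044 to 0.179 for Pcna, -0.029 to 0.261 for Gins1, -0.043 to 0.262 for Prim1, -0.055 to 0.080 for Fen1 and -0.042 to 0.088 for Tyms. The values below 0 came without EMT 1 (all of these genes), EMT 3 (all but Tyms), Squamous 2 (Pcna and Fen1), and Squamous 4 or Squamous 5 (Fen1). With a further T before the E2F site, 4.35% of mitotic and 37.5% of replication windows held it, against 2.27% of all windows. Of the windows of measured genes, 3.38% held this longer form. No paired analysis was possible because EMT and Squamous, the histologies compared, share no replicate number in the labels. Signal over background is unknown, since the values come without detection calls.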
